A study of Mus musculus with 6 samples.

Results

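Triglyceride synthesis, lipid droplet and lipid uptake genes were followed in splenic monocytes of IL-4Rα+/+ and IL-4Rα-/- mice, namely Mogat1, Dgat1, Dgat2, Gpam, Plin2, Pnpla2, Lipe, Lpl, Cd36 and Pparg. They are 10 of the 55421 genes in the count tables, and all 10 had enough counts for the test. They were chosen by name around Mogat1, which had been selected on an earlier result of the same genotype comparison, so their differences between the genotypes are given as a description and carry no test. There were 6 libraries, each from 1 mouse, with 3 mice of each genotype on the C57BL/6 strain. IL-4Rα-/- mice lack Il4ra, the IL-4 receptor alpha chain, in all cells of the body, and IL-4Rα+/+ mice carry the intact gene. The loss is thus not limited to monocytes. The mice were untreated adults, and their sex is not in the labels. Monocytes were left untouched after antibodies and magnetic beads had removed other splenocytes, and their polyadenylated RNA was sequenced in a strand-directed protocol. Levels are given as CPM, the counts scaled by TMM to libraries of 1 common size.

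Triglyceride is built on glycerol 3-phosphate or on monoacylglycerol. GPAT1, the product of Gpam, adds the first acyl chain to glycerol 3-phosphate, whereas MOGAT1 acylates monoacylglycerol to diacylglycerol, and DGAT1 and DGAT2 add the last chain. The product is stored in droplets coated by perilipins such as PLIN2, and it is broken down by ATGL (Pnpla2) and hormone-sensitive lipase (Lipe). Lipoprotein lipase (Lpl) and the fatty acid translocase CD36 bring in lipid from outside, and PPARγ (Pparg) is a nuclear receptor that drives many of these genes. IL-4 acts through STAT6, and in macrophages it is known to raise PPARγ activity, fatty acid uptake and fatty acid oxidation.

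Between 26807281 and 29033297 reads per library were counted on genes. Il4ra, the targeted gene, had 3903, 3550 and 4686 counts in IL-4Rα+/+ and 781, 2268 and 940 counts in IL-4Rα-/- replicates 1 to 3, and thus followed the labels, with most residual reads in IL-4Rα-/- replicate 2. Summed monocyte markers (10 of 10 detected, led by Lyz2, Csf1r and Ccr2) were at 16060 to 22850 CPM in IL-4Rα+/+ and at 18820 to 23850 CPM in IL-4Rα-/- libraries. Markers of adipocytes, the classical triglyceride-storing cells, summed to 0.264 to 0.632 CPM and 0.179 to 0.385 CPM, with Lep, Cidea and Lgals12 at 0 counts in all libraries and 7 of the 10 at 3 counts or fewer in every library. Other cells were present. Summed markers of red pulp macrophages, led by Hmox1, Vcam1 and Slc40a1, were 3741 to 4294 CPM in IL-4Rα+/+ and 4816 to 7622 CPM in IL-4Rα-/-, and 12 of 12 were higher in the mean of IL-4Rα-/-. Erythroid markers, led by globin genes, were at 59.6 to 129 CPM and 171 to 429 CPM, and eosinophil, basophil and mast cell markers at 80.2 to 94.4 CPM and 137 to 219 CPM. B and plasma cell markers summed to 491 to 560 CPM and 571 to 755 CPM, with 10 of 10 higher in the mean of IL-4Rα-/-. These 4 sums were separate between the genotypes. Neutrophil markers (57.8 to 257 CPM and 108 to 687 CPM), dendritic cell markers (494 to 933 CPM and 426 to 648 CPM), megakaryocyte and platelet markers (34.9 to 85.1 CPM and 28.5 to 65.9 CPM, with Gp1bb at 0) and endothelial markers (124 to 225 CPM and 156 to 238 CPM) were also found. Pancreatic acinar markers stood at 365 CPM in IL-4Rα-/- replicate 2 and at 10.5 to 54.3 CPM in the other 5 libraries. Xist, which is transcribed from the inactive X chromosome, had 15739 counts in IL-4Rα+/+ replicate 1 and 13512 in IL-4Rα-/- replicate 3, and 1 to 103 in the other 4 libraries.

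The promoters shown are that of Mogat1, the gene around which the others were chosen, and those of Cd36 and Pparg, which varied together between mice. Pparg had 3 windows, of which the first is printed; of the others, 1 held AGGTCA and 1 held none of the motifs. RefSeq windows of 300 bases (250 before and 50 after the start, GRCm38.p6) were found for 7 of the 10 genes, with 11 windows in all. Capitals mark matches to TTCNNNNGAA, the spaced palindrome that STAT6 prefers, and to AGGTCA, a nuclear receptor half-site as bound by PPARγ, on either strand.
Mogat1, chr1:78510810-78511109, plus strand: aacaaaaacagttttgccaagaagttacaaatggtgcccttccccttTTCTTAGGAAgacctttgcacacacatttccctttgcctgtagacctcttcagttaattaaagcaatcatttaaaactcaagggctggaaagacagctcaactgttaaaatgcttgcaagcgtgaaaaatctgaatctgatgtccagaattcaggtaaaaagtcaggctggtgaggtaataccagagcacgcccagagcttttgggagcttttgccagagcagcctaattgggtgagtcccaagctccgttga
Cd36, chr5:17835847-17836146, minus strand: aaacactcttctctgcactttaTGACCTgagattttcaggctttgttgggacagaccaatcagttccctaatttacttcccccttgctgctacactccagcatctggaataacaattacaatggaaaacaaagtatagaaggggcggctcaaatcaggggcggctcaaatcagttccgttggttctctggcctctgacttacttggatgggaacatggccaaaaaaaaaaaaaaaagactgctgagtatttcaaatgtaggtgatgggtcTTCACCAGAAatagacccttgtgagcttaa
Pparg, chr6:115360894-115361193, plus strand: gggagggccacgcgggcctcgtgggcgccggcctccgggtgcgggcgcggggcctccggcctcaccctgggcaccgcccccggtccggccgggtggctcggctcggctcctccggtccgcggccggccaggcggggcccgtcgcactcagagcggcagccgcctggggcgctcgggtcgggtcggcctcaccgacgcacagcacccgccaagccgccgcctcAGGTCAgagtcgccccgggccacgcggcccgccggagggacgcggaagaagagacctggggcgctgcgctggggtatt
Of the 11 windows, 2 held TTCNNNNGAA, in Mogat1 as TTCTTAGGAA, which begins 203 bases before the start, and in Cd36 as TTCACCAGAA, which begins at base 21 of the transcribed part, against 6.95% of all 32851 promoters of that length. AGGTCA was found in 5 windows, those of Plin2 and Cd36, 1 of Gpam and 2 of Pparg, against 16.3% of all promoters. TTCNNNGAA, the closer-spaced STAT site, was found in 1 window, of Lipe, against 8.30% of all. The full PPAR direct repeat AGGTCANAGGTCA, which contains the half-site, was in 0 of the 11 and in 0.0396% of all. A match is only a run of letters and does not show binding.

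Mogat1 (ENSMUSG00000012187.13, chr1:78510991-78538173, plus strand of GRCm38) had 9, 12 and 7 counts in IL-4Rα+/+ replicates 1, 2 and 3 and 41, 39 and 28 counts in IL-4Rα-/- replicates 1, 2 and 3. All 3 IL-4Rα-/- libraries thus lay above all 3 IL-4Rα+/+ libraries. The exact Poisson 95% interval, which covers counting error only, ran from 6.20 to 20.96 for the highest IL-4Rα+/+ count of 12 and from 18.6 to 40.5 for the lowest IL-4Rα-/- count of 28, so these nearest intervals overlapped. The level was 0.338 ± 0.0871 CPM (SD, n = 3) in IL-4Rα+/+ and 1.26 ± 0.275 CPM (SD, n = 3) in IL-4Rα-/- monocytes. The log2 fold change was 1.88 ± 0.34 (SE, edgeR), or 3.68-fold. With a filter of more than 1 CPM in 3 libraries the gene was not kept, and it entered the test only through its counts in IL-4Rα-/- libraries, since 1 of the 3 IL-4Rα+/+ libraries reached the minimum count of 10.

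Several measures moved with Mogat1. The sums of red pulp macrophage, erythroid, B and plasma cell, and eosinophil, basophil and mast cell markers were higher in all 3 IL-4Rα-/- libraries, as given above, and the part of these cells in the Mogat1 reads was not tested. In RNA from a mixture, more cells that express a gene and more RNA per cell cannot be told apart. Without IL-4Rα-/- replicate 2, the library with the pancreatic reads, the log2 fold change of Mogat1 was 1.82. Among the libraries with high Xist it stood at 0.316 CPM in IL-4Rα+/+ and 0.947 CPM in IL-4Rα-/-, and among the others at 0.264 and 0.434 CPM against 1.37 and 1.46 CPM. BC035947, a gene on the opposite strand that overlaps Mogat1 at its 5′ end, had 1, 2 and 0 counts in IL-4Rα+/+ and 13, 2 and 4 counts in IL-4Rα-/-, and the strand setting of the counting is not given in the sources used here.

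**Figure D1:**
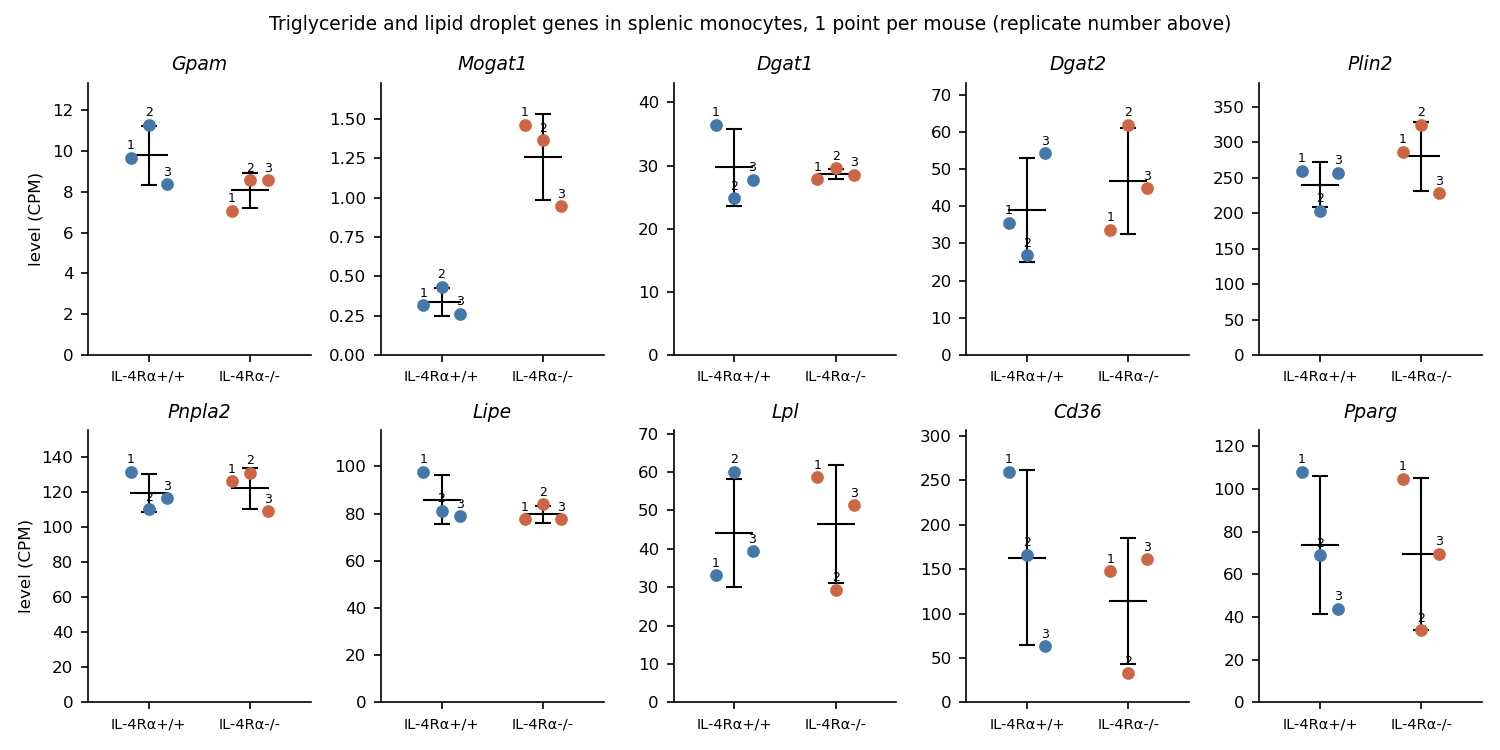
Level of each of the 10 genes (y axis, CPM, from 0) by genotype (x axis); each point is 1 mouse with its replicate number, the long dash is the mean and the bar the SD of 3 mice. The IL-4Rα-/- points of Mogat1 lie between 0.947 and 1.46 CPM and those of IL-4Rα+/+ between 0.264 and 0.434 CPM, whereas the points of the other 9 genes overlap between the genotypes.

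Among the enzymes around Mogat1, Gpam (ENSMUSG00000024978.11, chr19:55067268-55127238, minus strand) was at 9.66, 11.3 and 8.38 CPM in IL-4Rα+/+ and at 7.07, 8.58 and 8.56 CPM in IL-4Rα-/- replicates 1 to 3. Of the IL-4Rα-/- values, 2 lay within the IL-4Rα+/+ range and 1 below it, with a log2 fold change of -0.28 ± 0.17 (SE). Dgat1 (ENSMUSG00000022555.12, chr15:76502015-76511953, minus strand) had 36.5, 24.9 and 27.8 CPM against 27.9, 29.6 and 28.6 CPM. The 3 IL-4Rα-/- libraries were nearly equal and lay inside the IL-4Rα+/+ range (log2 fold change -0.05 ± 0.15). Dgat2 (ENSMUSG00000030747.5, chr7:99153658-99182719, minus strand) had 35.6, 26.9 and 54.2 CPM against 33.7, 62.0 and 44.9 CPM. It was highest in IL-4Rα-/- replicate 2 and IL-4Rα+/+ replicate 3, that is, in 1 mouse of each genotype, with a log2 fold change of 0.27 ± 0.31. DGAT1 and DGAT2 are unrelated proteins for the same reaction, and per length of exon the level of Dgat2 was 0.965, 1.07 and 1.94 times that of Dgat1 in IL-4Rα+/+ and 1.201, 2.08 and 1.56 times in IL-4Rα-/- libraries, with overlap between the genotypes.

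For the droplet coat, Plin2 (ENSMUSG00000028494.12, chr4:86648386-86670060, minus strand) was at 260, 204 and 257 CPM in IL-4Rα+/+ and at 287, 325 and 229 CPM in IL-4Rα-/- replicates 1 to 3. Of the IL-4Rα-/- libraries, 2 lay above all IL-4Rα+/+ libraries and 1 among them (log2 fold change 0.22 ± 0.16). The 2 droplet lipases had the narrowest ranges of the 10. Pnpla2 (ENSMUSG00000025509.15, chr7:141455198-141460743, plus strand), which takes the first fatty acid off triglyceride, was at 132, 110 and 116 CPM against 126, 131 and 109 CPM, a log2 fold change of 0.03 ± 0.11. Lipe (ENSMUSG00000003123.15, chr7:25379527-25398710, minus strand), which acts mainly on diacylglycerol, was at 97.7, 81.3 and 78.9 CPM against 77.7, 83.9 and 77.5 CPM, a log2 fold change of -0.11 ± 0.10. From the lowest to the highest of the 6 libraries, Pnpla2 spanned 1.21-fold and Lipe 1.26-fold. Dgat2, Pnpla2 and Lipe share chromosome 7 with Il4ra, at distances of 26.4, 15.9 and 100 Mb.

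Lpl (ENSMUSG00000015568.16, chr8:68880491-68907448, plus strand), whose enzyme releases fatty acids from lipoproteins, had 33.1, 60.1 and 39.5 CPM in IL-4Rα+/+ and 58.7, 29.4 and 51.4 CPM in IL-4Rα-/- replicates 1 to 3. Both genotypes held low and high mice (log2 fold change 0.07 ± 0.31). Cd36 (ENSMUSG00000002944.15, chr5:17781690-17888801, minus strand) had 260, 166 and 63.4 CPM against 148, 32.7 and 161 CPM. It was lowest in IL-4Rα-/- replicate 2 and IL-4Rα+/+ replicate 3 and spanned 7.95-fold, with a log2 fold change of -0.52 ± 0.68. Pparg (ENSMUSG00000000440.12, chr6:115360951-115490399, plus strand) had 108, 69.0 and 43.8 CPM against 105, 33.8 and 69.7 CPM. Its lowest libraries were the same as those of Cd36, its range was 3.19-fold, and the log2 fold change was -0.09 ± 0.46.

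**Figure D2:**
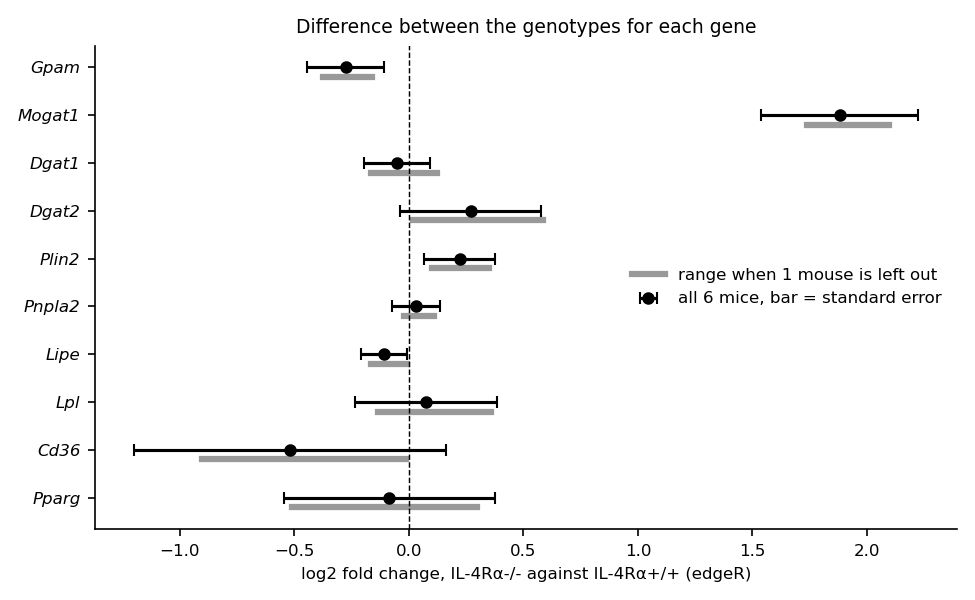
Log2 fold change of IL-4Rα-/- against IL-4Rα+/+ (x axis) for each gene (y axis), with its standard error as a thin bar and, as a grey bar, the range of values when each of the 6 mice was left out in turn. Mogat1 stays between 1.74 and 2.10, and the grey bars of Dgat1, Pnpla2, Lpl and Pparg cross 0.

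Over all 13849 genes tested, edgeR called 0 (0%) at an adjusted p under 0.15, by its quasi-likelihood test and the method of Benjamini and Hochberg. An unadjusted p under 0.05 was found for 1120 genes (8.09%), split into 515 (3.72%) with higher and 605 (4.37%) with lower levels in IL-4Rα-/-. Of the 10 genes edgeR called 0, and 1, Mogat1, had an unadjusted p under 0.05, in the higher direction. DESeq2 called 80 of 14003 genes (0.571%) at an adjusted p under 0.15, and 1 of the 10, again Mogat1. With 1 mouse left out it called 19 to 438 genes, fewest without IL-4Rα+/+ replicate 2 and most without IL-4Rα+/+ replicate 3, and it called Mogat1 in 2 of the 6 cases, without either replicate 3. Separate CPM ranges of IL-4Rα-/- and IL-4Rα+/+ were seen in 2146 genes (15.5%), and in 1 of the 10. Since Mogat1 was selected on this comparison, these counts add nothing to its values. The median log2 fold change of the 10 genes was -0.01, with 5 higher and 5 lower, beside 0.01 over all genes tested.

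The 10 genes differed far more from each other in level than between the genotypes. Per kilobase of merged exons and over 6 mice, Plin2 led with 74.1 ± 12.1 CPM per kb (SD), followed by Pnpla2 with 40.0 ± 3.37, Cd36 with 38.6 ± 22.6, Pparg with 24.2 ± 10.3 and Lipe with 14.1 ± 1.31 CPM per kb. Dgat2 with 13.9 ± 4.32, Dgat1 with 9.55 ± 1.28, Lpl with 4.33 ± 1.26 and Gpam with 1.34 ± 0.214 CPM per kb came next, and Mogat1 was last with 0.513 ± 0.344 CPM per kb. In this order, the ranges of neighbours were separate between Plin2 and Pnpla2, between Dgat1 and Lpl, between Lpl and Gpam, and between Gpam and Mogat1, and the other 5 neighbouring pairs overlapped. Gpam and Mogat1 were thus the least abundant of the 10. Gpat4, from the wider list and named after its values were seen, encodes another enzyme for the step of Gpam and stood at 11.2 ± 1.16 CPM per kb (SD over 6 mice), above the mean of Dgat1. With the longest transcript as the length, the order of the 10 means stayed the same. The ranges of Dgat1 and Lpl, and those of Gpam and Mogat1, then overlapped.

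**Figure D3:**
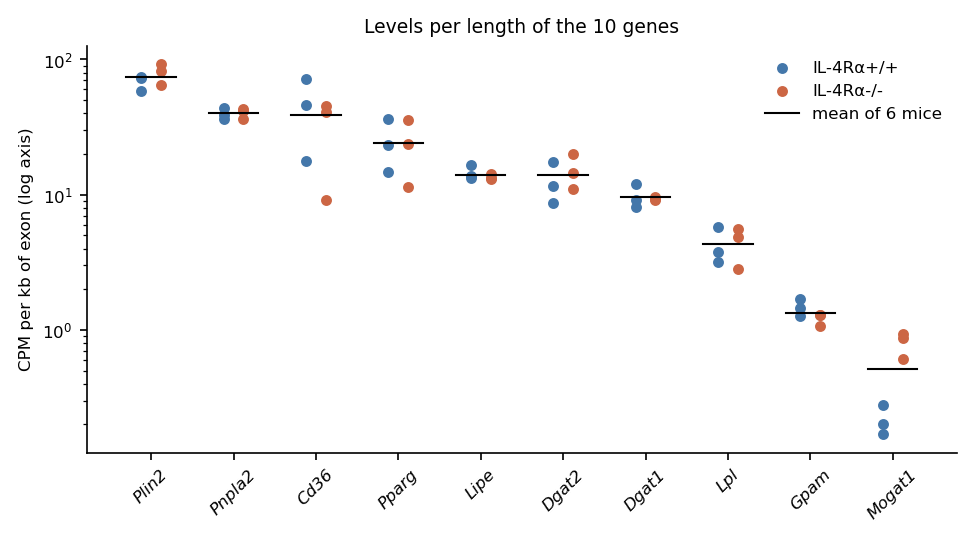
Level per length (y axis, CPM per kb of merged exons, log axis) of the 10 genes (x axis, from highest to lowest mean); each point is 1 mouse coloured by genotype, and the line is the mean of 6 mice. Plin2 stands at 74.1 and Mogat1 at 0.513 CPM per kb, and the points of Cd36 and Pparg are spread widely within both genotypes.

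The spread between mice of the same genotype set Cd36 and Pparg apart from the other genes. The pooled within-genotype SD of log2 CPM was 1.17 for Cd36 and 0.742 for Pparg, beside a median of 0.132 over the 8609 genes with a mean of at least 10 CPM. That of Cd36 was larger than in 99.5% and that of Pparg larger than in 98.2% of those genes. Lpl (SD 0.488, larger than 94.8%) and Dgat2 (0.474, larger than 94.5%) came next, whereas Plin2 (0.230, 77.3%), Dgat1 (0.203, 72.7%), Pnpla2 (0.135, 51.6%) and Lipe (0.127, 47.8%) were closer to the median gene.

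This spread ran beside that of 2 monocyte subset genes, Nr4a1 and Ccr2. Nr4a1, a transcription factor gene needed for Ly6C-low monocytes, was at 1439, 1209 and 828 CPM in IL-4Rα+/+ and at 1024, 539 and 1116 CPM in IL-4Rα-/- replicates 1 to 3. Ccr2, the chemokine receptor of Ly6C-high monocytes, was at 380, 1045 and 1668 CPM and at 826, 2008 and 979 CPM. Cd36 had the same order of mice as Nr4a1, and Pparg the reverse order of Ccr2. Other genes of the monocyte list differed in part. Adgre4 (1074, 870.5 and 502.5 CPM, then 805.8, 426.9 and 695.4 CPM) was lowest in the same 2 mice as Cd36. So was Cx3cr1 (599, 829 and 526 CPM, then 561, 346 and 612 CPM), but it was highest in IL-4Rα+/+ replicate 2. Ly6c2 (242, 380 and 427 CPM, then 339, 592 and 503 CPM) was highest in IL-4Rα-/- replicates 2 and 3. Their relations with the 10 genes were not tested. Over the 6 mice and on log2 CPM, Cd36 and Nr4a1 had a Pearson r of 0.985 (exact permutation p = 0.00139, adjusted p = 0.0278) and a Spearman rho of 1.00 (exact permutation p = 0.00278, adjusted p = 0.0278). Without IL-4Rα-/- replicate 2 and IL-4Rα+/+ replicate 1, the mice farthest from the median of Nr4a1, r was 0.947. Pparg and Ccr2 had an r of -0.911 (exact permutation p = 0.00694, adjusted p = 0.0694) and a rho of -1 (exact permutation p = 0.00278, adjusted p = 0.0278), and r was -0.965 without the same 2 mice. Cd36 with Ccr2 (r = -0.897, exact permutation p = 0.0194, adjusted p = 0.0972; rho = -0.771, exact permutation p = 0.103, adjusted p = 0.514) and Pparg with Nr4a1 (r = 0.867, exact permutation p = 0.0167, adjusted p = 0.0972; rho = 0.771, exact permutation p = 0.103, adjusted p = 0.514) did not pass 0.05 after adjustment, and without those 2 mice their r was -0.903 and 0.559. The p-values were two-sided and adjusted over 20 relations, of the 10 genes with Ccr2 and Nr4a1. These 2 markers were chosen after their values were seen, a choice that neither the p-values nor the adjustment covers. The Pearson p of 0.00139 is also the smallest that the 720 pairings of 6 mice allow. Ccr2 and Nr4a1 were themselves related (r = -0.865). Within the 3 mice of each genotype the r of Cd36 with Nr4a1 was 1.00 in IL-4Rα+/+ and 0.998 in IL-4Rα-/-. Dgat2 had an r of -0.801 with Nr4a1 (exact permutation p = 0.0472, adjusted p = 0.189; rho = -0.714, exact permutation p = 0.136, adjusted p = 0.544), and Mogat1 an r of -0.447 with Nr4a1 (exact permutation p = 0.401, adjusted p = 0.730) and of 0.264 with Ccr2 (exact permutation p = 0.656, adjusted p = 0.771). Summed dendritic cell markers were 933, 787 and 494 CPM in IL-4Rα+/+ and 648, 426 and 635 CPM in IL-4Rα-/- replicates 1 to 3. Megakaryocyte and platelet markers were 85.1, 59.0 and 34.9 CPM against 65.9, 28.5 and 61.6 CPM. Both were highest in IL-4Rα+/+ replicate 1 and lowest in IL-4Rα+/+ replicate 3 and IL-4Rα-/- replicate 2, like Cd36. Neutrophil markers were highest in the latter 2, with 257 and 687 CPM. The part of these cells was not tested. Whether the share of monocyte subsets or of other cells, or the RNA per cell, differed between these mice cannot be told apart in bulk RNA. The mouse with high Xist in each genotype, IL-4Rα+/+ replicate 1 and IL-4Rα-/- replicate 3, also had its highest Cd36 and Nr4a1. Pparg in IL-4Rα-/- was highest in replicate 1. With Xist as a covariate the log2 fold change was -0.22 for Cd36 and 0.07 for Pparg, beside -0.52 and -0.09 without it. The part of Xist in this spread was not tested.

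**Figure D4:**
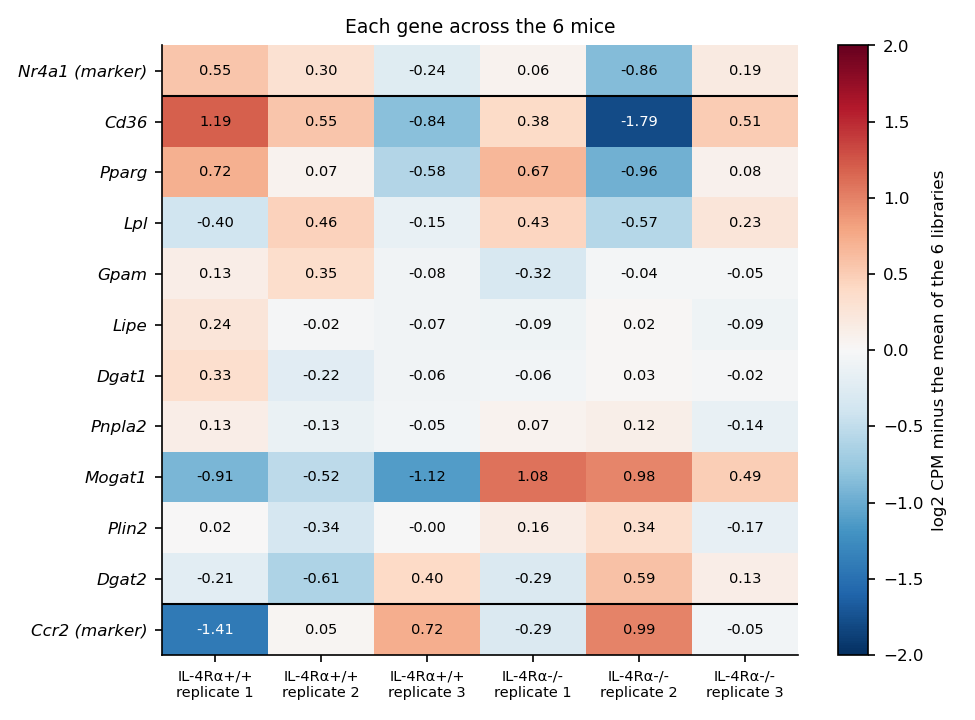
Log2 CPM minus the mean of the 6 libraries (colour and number in each cell) for the 10 genes and, above and below the lines, Nr4a1 and Ccr2 (rows) in each mouse (columns). Cd36 and Pparg are low in IL-4Rα+/+ replicate 3 and IL-4Rα-/- replicate 2 and highest in IL-4Rα+/+ replicate 1, whereas Mogat1 alone divides along the genotypes.

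Some other lipid genes had their lowest or highest values in the same mice. Fabp4, a fatty acid binding protein and PPARγ target, was at 124, 101 and 33.0 CPM in IL-4Rα+/+ and at 95.0, 25.3 and 75.2 CPM in IL-4Rα-/- replicates 1 to 3, lowest in the same 2 mice as Cd36 (it was named after its values were seen). G0s2, the inhibitor of ATGL, had 28.0, 14.5 and 4.64 CPM and 17.4, 3.50 and 10.9 CPM, again lowest in those mice. Agpat4, an acyltransferase that follows GPAT, had 157, 89.5 and 57.0 CPM and 98.0, 55.0 and 83.4 CPM. Msr1, a scavenger receptor for modified lipoproteins, had 51.7, 101 and 178 CPM and 83.0, 212 and 129 CPM, highest in the mice where Cd36 was lowest.

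The pattern of Mogat1 over the mice was also set beside that of all other genes tested. The closest of so many genes are bound to lie nearer to it than the few others of the 10. As Mogat1 was selected on the genotype comparison, genes that also differ between the genotypes come first in such a ranking, which is a description only. The r of log2 CPM with Mogat1 over the 6 mice was highest for Plin2 (0.506) and lowest for Gpam (-0.573), and Plin2 ranked at 2654 among 13848 genes. The 5 genes most like Mogat1 were Rpl36, a ribosomal protein gene, Lrp12, Cd164, a sialomucin gene, Ptrh2 and Fez2, with r from 0.998 down to 0.989. They were better counted but differed less, with Rpl36 at 133 to 137 CPM in IL-4Rα+/+ and at 145 to 149 CPM in IL-4Rα-/-, and Lrp12 at 6.08 to 6.62 CPM and 8.56 to 10.1 CPM. With 6 points, 24 of the 13848 genes shared the exact order of mice (rho of 1), among them 3 of these 5. There are 720 possible orders of 6 mice, so among 13848 genes some share an order without any link.

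The wider lipid genes were taken from 8 hand-written lists with 125 genes, of which 124 were found and 98 had enough counts for the test. They were 55 higher and 43 lower in IL-4Rα-/- (over all genes tested, 7130 and 6719) with a median log2 fold change of 0.02, and 0 were called by edgeR or DESeq2. At an unadjusted p under 0.05 there were 2 higher and 6 lower genes, or 8 of 98, beside 8.09% of all genes tested, and separate ranges were seen in 4 higher and 9 lower genes, where all genes tested gave 15.5% in either direction. The genes that encode the rest of the triglyceride machinery gave no calls either. In glycerolipid synthesis 6 of 13 tested genes were higher and 7 lower (median -0.01), with 0 under 0.05 and Acsl5 (207 to 211 CPM in the means of the genotypes) and Agpat1 (68.5 and 72.3 CPM) among the most abundant per length beside Agpat4. In the coat and formation of droplets 5 of 8 were higher and 3 lower (median 0.04), with 0 under 0.05, and Aup1, Hsd17b11 and Bscl2 leading in level. In this list Plin1, the perilipin of adipocytes, had 0 to 0.145 CPM, and Cidea had 0 counts in all 6 libraries, which allows up to 0.102 to 0.113 CPM at 3 counts. In lipolysis 4 were higher and 4 lower of 8 (median 0.06), again with 0 under 0.05, and Lipa, the lysosomal acid lipase gene, was the most abundant with 281 ± 50.5 CPM and 239 ± 40.1 CPM (SD, n = 3 each).

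In fatty acid and lipoprotein uptake 9 of 14 genes were higher and 5 lower (median 0.13). Lrp1, a large endocytic receptor for remnant lipoproteins, was at 1867, 2112 and 2250 CPM in IL-4Rα+/+ and at 1624, 1709 and 1487 CPM in IL-4Rα-/- replicates 1 to 3, so that the IL-4Rα-/- libraries were all lower (log2 fold change -0.37 ± 0.10, edgeR adjusted p = 0.618, unadjusted p under 0.05). With the trend between counts and transcript length taken out of each library, its difference was -0.20 and its unadjusted p was above 0.05. Angptl4, the secreted inhibitor of lipoprotein lipase and a PPAR target, was at 4.08, 2.57 and 2.83 CPM and at 8.03, 4.41 and 4.23 CPM, with no overlap and the higher values in IL-4Rα-/- (0.81 ± 0.33, edgeR adjusted p = 0.618, unadjusted p under 0.05). Without IL-4Rα-/- replicate 1 its difference was 0.45 and its unadjusted p was above 0.05, and the latter was under 0.05 in 9 of 13 alternatives. Scarb1, the HDL receptor gene, lay at 347 ± 34.6 CPM and 337 ± 29.4 CPM (SD, n = 3 each).

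Among transcription regulators 8 of 20 were higher and 12 lower (median -0.10), and 4 of the lower ones had an unadjusted p under 0.05, where 4.37% of all genes tested did in that direction. Ncor1 encodes a corepressor of nuclear receptors such as PPARγ. It was at 284, 294 and 280 CPM in IL-4Rα+/+ and at 249, 232 and 258 CPM in IL-4Rα-/- (-0.22 ± 0.07, edgeR adjusted p = 0.618, unadjusted p under 0.05). All 3 IL-4Rα-/- libraries lay below the IL-4Rα+/+ ones, and with that length trend taken out the difference was -0.10 and its unadjusted p was above 0.05. Insig1, which holds the sterol sensor of SREBP in the endoplasmic reticulum, was at 40.7, 47.7 and 40.4 CPM and 35.6, 33.2 and 38.2 CPM (-0.27 ± 0.10, edgeR adjusted p = 0.618, unadjusted p under 0.05). The unadjusted p of Insig1 was under 0.05 in 9 of 13 alternatives, with differences from -0.32 to -0.19. Mlxipl, the gene of the carbohydrate sensor ChREBP, was named after its values were seen, and its 5.94, 1.81 and 0.453 CPM against 0.714, 0.455 and 0.541 CPM overlapped, with a difference that rested on IL-4Rα+/+ replicate 1. Without that library its log2 fold change went from -2.26 to -0.99. Stat6, Cebpa and Cebpb, the most abundant per length, had 0 calls, and Stat6 was at 488 ± 22.3 CPM and 457 ± 10.3 CPM (SD, n = 3 each). All 3 IL-4Rα-/- values of Stat6 lay below those of IL-4Rα+/+, where 15.5% of all genes tested had separate ranges in either direction. Its log2 fold change was -0.095 ± 0.070, with an unadjusted p above 0.05 in edgeR.

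In fatty acid synthesis 5 of 12 genes were higher and 7 lower (median -0.14). Fads1, the delta-5 desaturase of polyunsaturated fatty acids, was at 14.7, 16.0 and 13.0 CPM in IL-4Rα+/+ and at 25.2, 18.2 and 20.6 CPM in IL-4Rα-/-, all higher (0.55 ± 0.15, edgeR adjusted p = 0.618, unadjusted p under 0.05). Acss2, which makes acetyl-CoA from acetate, was at 49.9, 39.0 and 24.99 CPM and at 24.1, 24.2 and 23.8 CPM, barely apart at IL-4Rα+/+ replicate 3 (-0.66 ± 0.23, edgeR adjusted p = 0.618, unadjusted p under 0.05). Without IL-4Rα+/+ replicate 1 its difference was -0.41 and its unadjusted p was above 0.05. In fatty acid oxidation, the fate that competes with storage, 13 of 15 genes were higher and 2 lower in IL-4Rα-/-, with a median of 0.10 and 0 under 0.05. Cpt1a, which brings fatty acids into mitochondria, was at 249 ± 41.0 CPM and 263 ± 8.75 CPM, and Acadl, an acyl-CoA dehydrogenase, at 62.3 ± 4.42 CPM and 70.1 ± 4.49 CPM (SD, n = 3 each). In cholesterol ester storage and efflux 5 of 8 were higher and 3 lower (median 0.05), with 0 under 0.05 and Apoe, Npc2 and Soat1 leading in level. Soat1, which makes the other neutral lipid of droplets, was at 362 ± 39.2 CPM and 367 ± 56.8 CPM (SD, n = 3 each). The marker sums of other cell types that moved with the genotype, as given above, stood beside all of these lists, and their part in them was not tested.

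**Figure D5:**
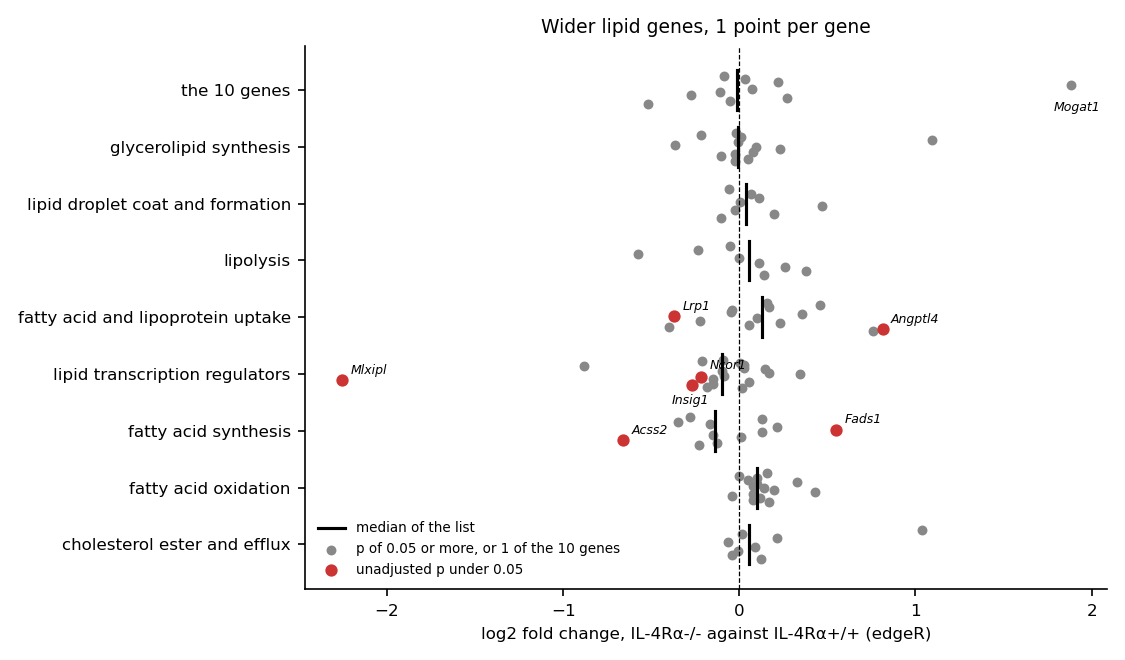
Log2 fold change of IL-4Rα-/- against IL-4Rα+/+ (x axis) for the genes tested (points, 1 gene left out) in the 10 genes and the 8 wider lists (y axis); black lines are medians and red points have an unadjusted p under 0.05 in edgeR. The medians lie between -0.14 and 0.13, and Mogat1 at 1.88 lies farthest to the right.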

How the data were processed

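RNA of splenic monocytes from 6 mice was measured by single-end sequencing with reads of 75 bp, 3 mice per genotype as given by the labels. The authors aligned the reads with STAR 2.6.1a to GRCm38 with a Gencode annotation and deposited raw counts per gene without normalization. Rows for unmapped, multimapping, ambiguous and off-gene reads (21.1 to 22.8% of reads) were left out. Genes passing filterByExpr of edgeR 4.0.16 (minimum count of 10, R 4.3.3) were scaled by TMM. The quasi-likelihood test was used with Benjamini-Hochberg adjustment at the study's threshold of 0.15. DESeq2 1.42.0 was an alternative. Symbols and lengths came from Gencode M21 of GRCm38, where 55240 of the 55421 identifiers matched. The study used wild-type littermates as controls, but no source used here ties single libraries to a litter or cage.

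The 10 genes and all lists were chosen with earlier results of these data known. Genes named beside them were Il4ra, in each wider list those called, up to 3 with the smallest unadjusted p under 0.05 and up to 3 with the highest level per length, the 5 most like Mogat1, and the leading or undetected markers of cell types. Same-numbered mice had correlations of 0.185, -0.271 and -0.296 in their deviations from the genotype means, so replicate numbers did not pair them. The main edgeR fit and the DESeq2 fit were tested on simulated data. Alternatives changed the tool, scaling, filter, threshold, covariates and length trend, and left out each mouse in turn. For 1 gene of the regulator list, counted with the others, the values are not reported here.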

Additional observations from a re-analysis of the deposited data

How the results depend on the processing

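Of 305 values under alternatives, 292 stayed on the same side of the threshold or within the spread between mice and 13 moved. Most were log2 fold changes of the 10 genes (139) or medians of the lists (104). These were judged against the spread between mice, which was wide for some genes, and all stayed. The levels per length of Plin2, Pnpla2, Lipe, Dgat2, Dgat1 and Lpl moved with the longest transcript. The count of genes called was 0 with edgeR under each alternative, the replicate block and the mice left out in turn (0 to 0) included, and 80 with DESeq2. Of the 10 genes, 0 were called with edgeR (0 to 0 with 1 mouse left out) and 1, Mogat1, with DESeq2, and 0 wider lipid genes were called by edgeR in any alternative or by DESeq2 with all 6 mice. DESeq2 with 1 mouse left out, chosen after seeing the data, called 0 to 1 of the 10, and 0 without IL-4Rα+/+ replicate 1 or 2 or IL-4Rα-/- replicate 1 or 2. The replicate block, with numbers that did not pair the mice, gave 0 calls, 765 genes at an unadjusted p under 0.05 and a log2 fold change of 1.89 for Mogat1. At that unadjusted p there were 1120 genes with all mice, 8 of them wider lipid genes, and 627 genes (4) without IL-4Rα+/+ replicate 2, 638 (3) without IL-4Rα-/- replicate 1 and 1724 (13) without IL-4Rα+/+ replicate 3; of the 8, Fads1 stayed under 0.05 in 13 of 13 alternatives. For Mogat1 the range was 1.70 to 1.89 with 6 libraries. The sign turned for Dgat1 without 1 mouse, for Pnpla2 in 3, Lpl in 4 and Pparg in 3 alternatives, all within the spread between mice. Cd36 went from -0.90 to -0.01 and Dgat2 from 0.02 to 0.59 as mice were left out. By the longest transcript Lpl was at 11.02 and Plin2 at 137.9 CPM per kb. At this depth 1 count was 0.0338 to 0.0378 CPM, so the counting error of Mogat1 is large.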
